A study of Homo sapiens with 4 samples.

Results

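The heat shock protein genes examined were 10 genes that encode the main cytosolic and mitochondrial chaperones, *HSPA1A*, *HSPA1B*, *HSPA8*, *HSPH1*, *DNAJB1*, *HSP90AA1*, *HSP90AB1*, *HSPB1*, *HSPD1* and *HSPE1*. They were chosen by name, and every probe other than controls whose accession is a transcript of these genes was taken, without regard to its signal. This gave 22 probes of the 41000 on the array, on 31 of 43376 spots, for 9 of the 10 genes, out of 17721 genes that could be named in all. No probe carried an accession of *HSPA1B*. On each of the 4 arrays all 22 probes were well above background, so no member was lost to a filter on dim signals, and no spot was saturated.

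Total RNA of Nalm-6 cells, an established human pre-B leukemia cell line, grown without oxidative stress, had been labelled with Cy3 and hybridized to single-color Agilent arrays, and wild-type cells, Arp5 KO cells, Arp8 KO cells and the cells given the label Arp8 overexpression had 1 array each. Arp5 and Arp8 are actin-related subunits of the INO80 chromatin remodeling complex, and homologous recombination had disrupted the locus of either gene in the KO cells. For the cells labelled Arp8 overexpression, the design describes a Tet-Off construct that was brought into Arp8 KO cells. All 4 arrays lay on 1 slide and were read on 1 scan day. Each genotype is a single array of a single cell line, so that genotype, clone and culture cannot be told apart. No difference has a replicate check and no p-value is given. The signal is the processed intensity of the scanner software in arbitrary units, and log2 ratios were taken after each array was scaled to the 75th percentile of its spots. That percentile lay between 1950.0 and 2012 units, and 30394 to 31420 spots per array were well above background.

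Heat shock proteins are chaperones that bind unfolded or partly folded polypeptides, keep them from aggregating and release them for folding. Proteins of the Hsp70 family work in cycles of ATP binding and hydrolysis that are started by J-domain proteins of the Hsp40 class and reset by nucleotide exchange factors, and Hsp90 takes over many clients at a later stage. Several of these genes are transcribed at a high rate in growing cells, while others are held low and are induced when heat shock factor 1, released from chaperones under stress, binds as a trimer to heat shock elements, which are alternating inverted copies of the unit GAA in the promoter.

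The targeted genes were looked at first. The *ACTR5* probe, which reads the mRNA for Arp5, gave 1909 units in wild-type cells, 65.3 in the Arp5 KO line, 1849 in the Arp8 KO line and 2088 on the array labelled as Arp8 overexpression. In Arp5 KO cells the signal was thus 28.8 times lower than in wild-type cells. The *ACTR8* probe A_23_P80694 gave 1092, 993.4, 784.8 and 679.3 units in the same order, and A_24_P131697 gave 2149, 2233, 1654 and 1857 units. Both *ACTR8* probes read below wild-type on the array labelled as Arp8 overexpression, with log2 ratios of -0.71 and -0.23, so its label is not borne out by these probes. Where they lie relative to the disrupted part of *ACTR8* is not given in the sources used here, so they give no check of the Arp8 KO array either.

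The cell type was checked with marker genes. Of 15 pre-B cell markers, 14 had a probe and all of these were well above background on every array, with *IGLL1*, the surrogate light chain gene, as the brightest. Summed over their probes, the signal reached 608933 units in wild-type cells, 599019 in the Arp5 KO line, 576347 in the Arp8 KO line and 597302 on the array labelled as Arp8 overexpression. In Arp8 KO cells 2 of their 19 probes were more than 2-fold lower than in wild-type cells, against 2.08% of all probes tested, *CD22* at a log2 ratio of -1.78 and *VPREB3* at -1.20, and 0 were in Arp5 KO cells, where these had ratios of -0.74 and -0.80, or on the array labelled as Arp8 overexpression, where they had -0.66 and 0.04. The same genes were more than 2-fold lower in the Arp8 KO line than on the array labelled as Arp8 overexpression, at -1.12 and -1.24, against 0.931% of all probes tested. Of 7 T cell markers, 3 were well above background on every array, the brightest being *CD8A* at 112.0 to 135.4 units, while *CD3D*, *CD3G*, *CD8B* and *TRAT1* were not. Of 7 myeloid markers, 4 were well above background on every array and *MPO*, *ELANE* and *FCGR3A* were not. The summed signal of the myeloid probes was 241.6 units in wild-type cells, 224.8 in the Arp5 KO line, 370.4 in the Arp8 KO line and 348.5 on the array labelled as Arp8 overexpression. The higher sums came mainly from *LYZ*, at 55.4, 46.3, 142.7 and 139.7 units in this order, and *ITGAM*, at 38.4, 28.4, 74.8 and 55.2 units. *CSF1R* gave 11.1 units in wild-type cells, 16.2 in the Arp8 KO line and 25.3 on the array labelled as Arp8 overexpression. *CD14*, the brightest of the list in wild-type and Arp5 KO cells, did not follow them, at 119.5, 124.4, 122.6 and 110.0 units on the 4 arrays.

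Sequences upstream of the genes were taken from the RefSeq promoter table (GRCh38.p14), in which all 10 genes matched with 16 annotated transcription starts. In the 250 bases before each start, 2 forms of a pair of inverted units were searched, GAANNTTC and TTCNNGAA, where N is any base. Each equals its own reverse complement, so a search of 1 strand covers both, and neighbouring matches may share a unit. Among 35116 upstream windows of this length, 5.78% held GAANNTTC, 6.62% held TTCNNGAA and 11.6% held either form. Of the 16 windows here, 8 held a match. These belonged to 8 of the 10 genes, against 3813 of 27305 genes over all windows. A gene with more than 1 start has more windows in which to hold a match. A run of 3 alternating units, GAANNTTCNNGAA or its reverse complement TTCNNGAANNTTC, was found in 4 of the 16 windows against 0.441% of all windows. A match is a description of the letters and not a mapped site.

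The upstream sequences of 6 genes are shown, with the matches in capitals, because *HSPA1A* and *HSPA1B* are near copies, *HSPB1* and *HSPH1* had large or opposite differences between the arrays, and *HSPA8* and *HSP90AA1* are the cytosolic chaperone genes with the most probes.
*HSPA1A*, chr6:31815293-31815542, plus strand: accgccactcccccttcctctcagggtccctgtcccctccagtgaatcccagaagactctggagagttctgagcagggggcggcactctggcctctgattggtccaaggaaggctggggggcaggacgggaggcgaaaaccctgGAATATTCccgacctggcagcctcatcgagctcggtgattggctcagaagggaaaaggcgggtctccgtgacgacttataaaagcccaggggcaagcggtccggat
*HSPA1B*, chr6:31827488-31827737, plus strand: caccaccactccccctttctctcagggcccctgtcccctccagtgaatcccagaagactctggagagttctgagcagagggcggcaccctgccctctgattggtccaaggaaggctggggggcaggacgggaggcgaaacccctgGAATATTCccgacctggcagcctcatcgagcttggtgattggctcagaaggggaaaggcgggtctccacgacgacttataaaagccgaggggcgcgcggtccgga
*HSPA8*, chr11:123062137-123062386, minus strand: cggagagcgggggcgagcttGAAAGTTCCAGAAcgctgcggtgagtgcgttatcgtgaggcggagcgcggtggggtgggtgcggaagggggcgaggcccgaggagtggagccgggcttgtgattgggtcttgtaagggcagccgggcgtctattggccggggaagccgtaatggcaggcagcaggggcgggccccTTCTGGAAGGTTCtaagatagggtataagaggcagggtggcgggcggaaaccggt
*HSPH1*, chr13:31162389-31162638, minus strand: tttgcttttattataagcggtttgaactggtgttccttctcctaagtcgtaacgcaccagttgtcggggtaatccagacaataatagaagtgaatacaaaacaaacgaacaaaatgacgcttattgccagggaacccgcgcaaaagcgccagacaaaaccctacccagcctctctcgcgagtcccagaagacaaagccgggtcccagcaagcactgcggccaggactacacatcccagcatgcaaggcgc
*HSP90AA1*, chr14:102087045-102087294, minus strand: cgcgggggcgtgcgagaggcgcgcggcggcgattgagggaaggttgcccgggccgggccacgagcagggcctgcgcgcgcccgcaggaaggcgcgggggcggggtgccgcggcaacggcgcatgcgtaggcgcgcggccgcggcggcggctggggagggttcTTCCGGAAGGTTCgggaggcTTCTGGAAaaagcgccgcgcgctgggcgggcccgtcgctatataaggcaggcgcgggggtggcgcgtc
*HSPB1*, chr7:76302423-76302672, plus strand: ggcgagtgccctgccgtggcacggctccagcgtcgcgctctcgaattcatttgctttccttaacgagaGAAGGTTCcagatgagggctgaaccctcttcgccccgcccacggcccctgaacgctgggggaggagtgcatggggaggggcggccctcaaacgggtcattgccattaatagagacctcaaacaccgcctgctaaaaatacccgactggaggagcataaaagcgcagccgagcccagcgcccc

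In *HSPA1A* and *HSPA1B* the single match lay 106 and 105 bases before the start. Their windows shared 235 of 249 bases (94.4%) when aligned without gaps at a shift of 1 base. In *HSPA8*, runs of 3 alternating units began 230 and 55 bases before the start. The *HSP90AA1* window shown held a run of 3 units that began 88 bases before the start and a further pair of units 68 bases before it, whereas the window of its other start held none. *HSPB1* had 1 match, 182 bases before the start, and no match was present in the window of *HSPH1*. *HSPD1* and *HSPE1* are neighbours transcribed away from each other, and the windows of *HSPE1* and of an *HSPD1* start had 104 bases in common. Neither of these held a match, while the window of the other *HSPD1* start held 3.

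**Figure D1:**
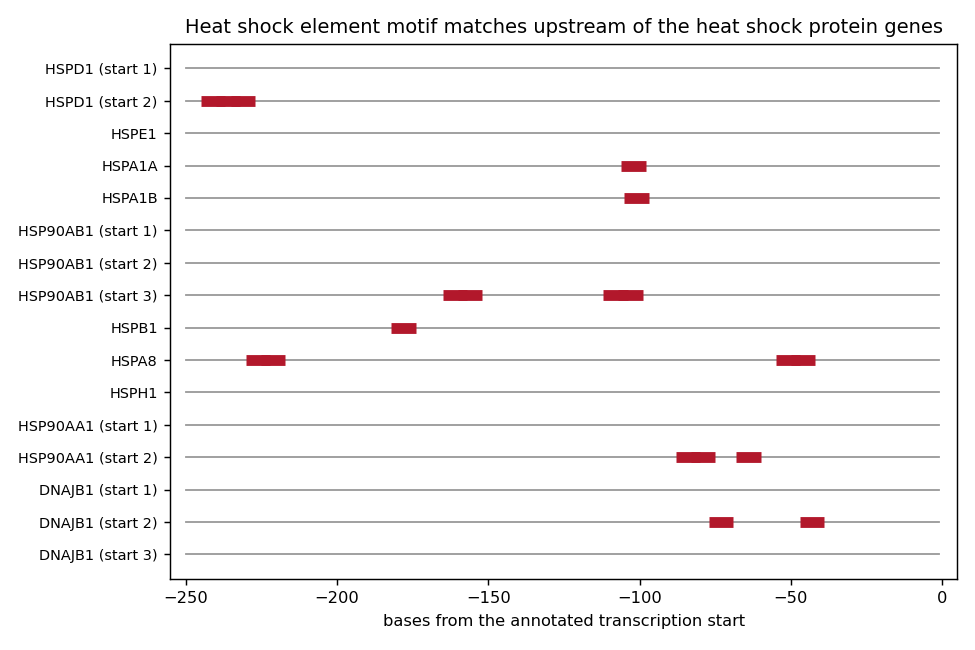
Matches to GAANNTTC or TTCNNGAA (red bars) in the 250 bases before each of the 16 annotated transcription starts of the 10 genes (grey lines), plotted by distance from the start in bases; starts of 1 gene are numbered. Of the 16 windows 8 hold a match, and the *HSPH1* and *HSPE1* windows hold none.

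The error that the arrays themselves allow to be estimated is that of repeated spots. Probes with at least 5 usable spots gave, for a log2 ratio between arrays, a median SD of 0.03 over 82 probes whose dimmest signal was at least 5000 units, 0.03 over 77 probes from 500 to 5000 units, 0.06 over 41 probes from 50 to 500 units and 0.22 over 20 probes from 10 to 50 units. This technical SD does not include the variation between cultures or between cell clones. The member probes ranged from 107.7 to 223900.0 units. The log2 ratio to wild-type cells exceeded 2 technical SDs for 20 of 22 probes in the Arp5 KO line, against 67.3% of the 27921 probes well above background on each array, for 21 in the Arp8 KO line, against 69%, and for 18 on the array labelled as Arp8 overexpression, against 70%. These shares are over probes of every brightness. The counts say that the arrays differed by more than spot noise, as they did for most probes, and nothing about the genotypes.

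The heat shock protein genes were mostly close to their wild-type level in the KO cells. In Arp5 KO cells 1 of 22 member probes was more than 2-fold lower than in wild-type cells, against 1.23% of 29974 probes tested over the array, and 0 of 22 were more than 2-fold higher, against 1.25%. In Arp8 KO cells 0 of 22 were lower, against 2.08% of 29424 probes, and 0 were higher, against 1.56%. On the array labelled as Arp8 overexpression 0 of 22 were lower than wild-type, against 2.83% of 29701 probes, and 0 were higher, against 1.56%. Between Arp8 KO cells and the array labelled as Arp8 overexpression, which shares no array with the Arp5 KO comparison, 0 of 22 were higher, against 1% of 29227 probes, and 0 were lower, against 0.931%. With 22 probes these shares correspond to less than 1 probe, so the counts do not differ from the background in a way that could be read. The probe beyond 2-fold was A_23_P111132 of *HSPA1A*.

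The log2 ratio to wild-type had a median over the 22 member probes of -0.17 in the Arp5 KO line, -0.17 in the Arp8 KO line and -0.12 on the array labelled as Arp8 overexpression. Over all 27921 probes well above background on the 4 arrays the medians were 0.04, 0.01 and 0.02, with the middle 50% of probes between -0.14 and 0.22 in Arp5 KO cells and between -0.19 and 0.21 in Arp8 KO cells. Among the 3878 probes with a mean signal of at least 10000 units the medians were 0.06, 0.04 and 0.07. Member probes were below 0 in 15 of 22 cases in Arp5 KO cells, in 16 in the Arp8 KO line and in 15 on the array labelled as Arp8 overexpression. These 3 comparisons share the wild-type array, which was the highest of the 4 arrays for 13 of the 22 probes, against 24.2% of all probes well above background, and the lowest for 5, against 31.2%. For Arp8 KO cells over the array labelled as Arp8 overexpression, where the wild-type array plays no part, the member median was -0.10 against 0.01 over all probes. With 1 value per gene, so that genes with 3 or 4 probes weigh no more than the others, the medians over the 9 genes were -0.09 in the Arp5 KO line, -0.09 in the Arp8 KO line and -0.06 on the array labelled as Arp8 overexpression, and 0.01 for Arp8 KO cells over that array, where the sign is thus the other one.

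**Figure D2:**
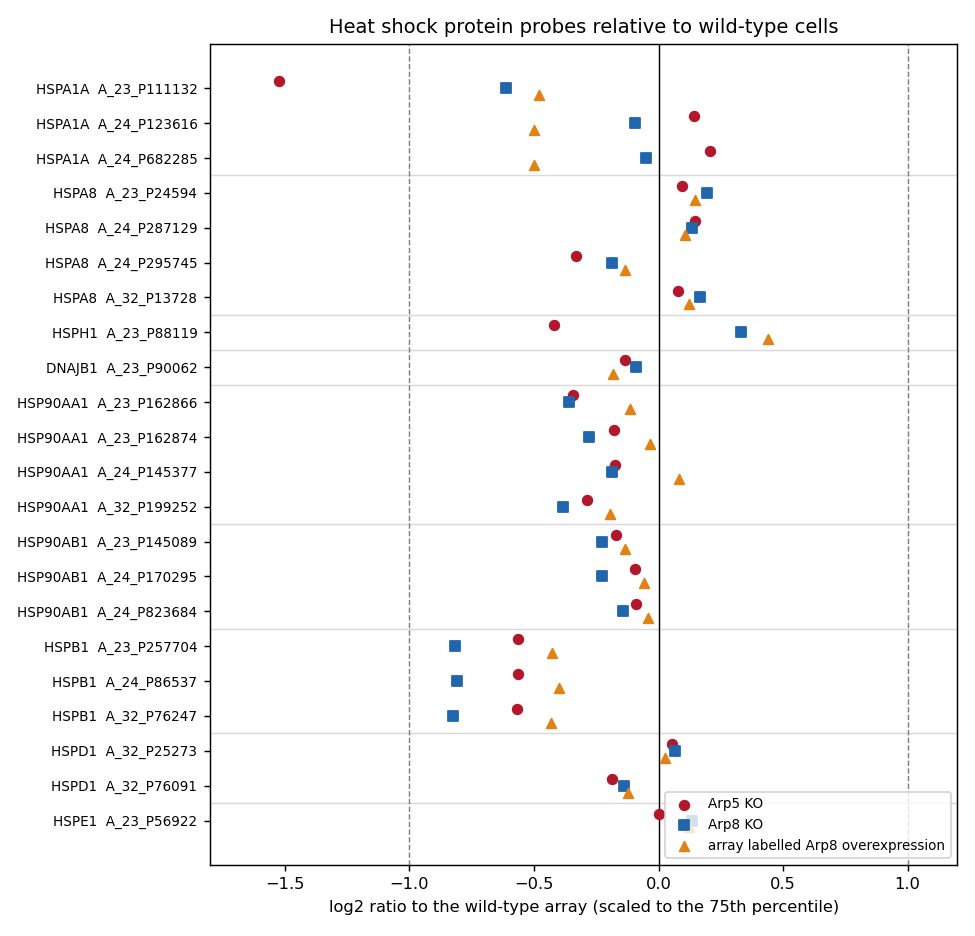
Log2 ratio to the wild-type array of each of the 22 member probes, grouped by gene, in Arp5 KO cells (circles), Arp8 KO cells (squares) and on the array labelled as Arp8 overexpression (triangles), with 1 array per genotype and dashed lines at 2-fold. The *HSPA1A* probe A_23_P111132 lies at -1.52 in Arp5 KO cells, and the 3 *HSPB1* probes lie between -0.82 and -0.40 on all of the 3 arrays.

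Among the cytosolic Hsp70 genes, *HSPA1A* encodes the main stress-inducible Hsp70. Its 3 probes did not behave alike. Probe A_23_P111132 gave 314.6 units in wild-type cells, 107.7 in the Arp5 KO line, 208.3 in the Arp8 KO line and 229.2 on the array labelled as Arp8 overexpression. Relative to wild-type cells, its log2 ratio was -1.52 in Arp5 KO cells, which is 2.88 times lower, -0.61 in the Arp8 KO line and -0.48 on the array labelled as Arp8 overexpression. Wild-type was the highest and Arp5 KO the lowest of its arrays, and each neighbour in that order was apart by more than 2 technical SDs. For the closest pair, Arp8 KO over the array labelled as Arp8 overexpression at a log2 ratio of -0.13, this did not hold with the percentile over probes well above background (-0.098) or the authors' table (-0.11).

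Probe A_24_P123616, with the same *HSPA1A* accession, gave 728.6, 792.0, 691.4 and 523.5 units on these arrays, and A_24_P682285 gave 528.6, 601.3, 517.2 and 380.1 units. In Arp5 KO cells they were at log2 ratios of 0.14 and 0.21, on the other side of wild-type from A_23_P111132, and in Arp8 KO cells they were at -0.09 and -0.05, or -0.14 and 0.00074 with normexp, a background model, where the second has the other sign. On the array labelled as Arp8 overexpression the 3 probes had ratios of -0.48, -0.50 and -0.50, but of -0.29, -0.43 and -0.44 with normexp, so how near they are depends on the processing. In Arp5 KO cells the ratios of the 3 probes spanned 1.73 on the log2 scale, against a technical SD of 0.06 from 50 to 500 units. None of their spots was marked as an outlier on any array. The raw median signal of A_23_P111132, before any correction by the software, was 285 units in wild-type and 112 in Arp5 KO cells over a local background of 22 and 25 units. Because the gene's median over probes is 0.14 in Arp5 KO cells, no direction is given for *HSPA1A* in these cells. *HSPA1B* encodes a nearly identical protein from a neighbouring gene, and which of the 2 mRNAs each probe reads could not be settled without the probe sequences, so the values are uncertain as a measure of *HSPA1A* alone.

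*HSPA8* encodes Hsc70, the constitutive Hsp70. Its probe A_24_P287129 gave 201486 units in wild-type cells, 219642 in the Arp5 KO line, 223900.0 in the Arp8 KO line and 220561 on the array labelled as Arp8 overexpression. The 3 probes with the accession NM_006597 had log2 ratios to wild-type of 0.08 to 0.15 in Arp5 KO cells, 0.14 to 0.20 in the Arp8 KO line and 0.11 to 0.15 on the array labelled as Arp8 overexpression. The probe A_24_P295745, listed under another transcript variant of the gene, NM_153201, had ratios of -0.33, -0.19 and -0.14. A_24_P295745 thus pointed the other way from the other 3 probes of the gene, all within 1.5-fold. With a single probe under the other variant, a difference between transcripts cannot be told from one between probes. The gene's median in Arp5 KO cells changed sign with quantile normalization.

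*HSPH1* encodes Hsp105, an Hsp110 protein that acts as a nucleotide exchange factor for Hsp70. Its probe gave 21180 units in wild-type cells, 15600 in the Arp5 KO line, 26986 in the Arp8 KO line and 29164 on the array labelled as Arp8 overexpression. The log2 ratio to wild-type was -0.42 in the Arp5 KO line, 0.33 in the Arp8 KO line and 0.44 on the array labelled as Arp8 overexpression. The 4 arrays were ordered with the array labelled as Arp8 overexpression highest and Arp5 KO lowest, and the smallest gap between neighbours was that between these Arp8 arrays. Arp8 KO over the array labelled as Arp8 overexpression had a log2 ratio of -0.11, beyond 2 technical SDs, but of -0.058 with quantile normalization and -0.035 with normexp, both within 2 technical SDs, so whether these 2 arrays stand apart depends on the processing. Of the myeloid markers, *LYZ* had log2 ratios to wild-type of -0.24, 1.35 and 1.31 (Arp5 KO, Arp8 KO and the array labelled as Arp8 overexpression), *ITGAM* -0.41, 0.94 and 0.50, *CSF1R* 0.01, 0.53 and 1.17 and *CD14* 0.08, 0.02 and -0.14, and their part in the *HSPH1* difference was not tested. *DNAJB1* encodes an Hsp40 protein that delivers clients to Hsp70 and starts its ATP hydrolysis. Its probe gave 6901, 6196, 6566 and 6172 units in wild-type, Arp5 KO and the Arp8 KO line and on the array labelled as Arp8 overexpression, with ratios of -0.13, -0.09 and -0.18.

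**Figure D3:**
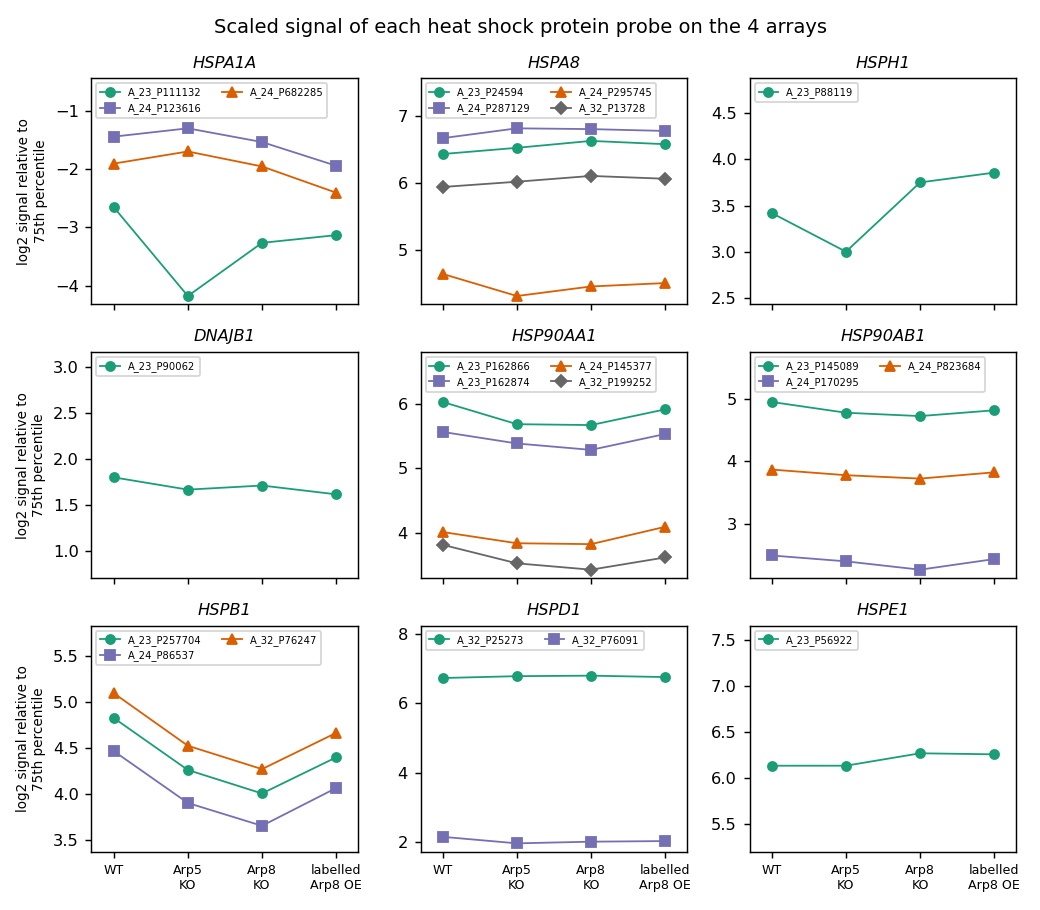
Log2 signal relative to the 75th percentile of the array for every member probe of the 9 genes with probes, by array (wild-type, WT; Arp5 KO; Arp8 KO; labelled as Arp8 overexpression, labelled Arp8 OE); lines join the values of a probe and each panel has its own range. The *HSPA1A* probe A_23_P111132 falls in Arp5 KO cells while the other *HSPA1A* probes do not, and the 3 *HSPB1* probes run parallel.

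The cytosolic Hsp90 genes had log2 ratios between -0.38 and -0.09 in the KO cell lines. *HSP90AA1*, the inducible Hsp90 alpha, is read by 4 probes, and A_23_P162874 is on 10 spots. This probe gave 93428 units in wild-type cells, 81268 in the Arp5 KO line, 77983 in the Arp8 KO line and 92833 on the array labelled as Arp8 overexpression. Its log2 ratio was -0.18 in the Arp5 KO line, -0.28 in the Arp8 KO line and -0.03 on the array labelled as Arp8 overexpression, each from the mean of the usable spots of an array. Scanner marks for outliers removed 2 of its spots in Arp5 KO cells and 3 on the array labelled as Arp8 overexpression. Taken over only the spots usable on both arrays of a comparison, the mean log2 ratio was -0.15 (SD 0.04, 8 spots) in the Arp5 KO line, -0.28 (SD 0.05, 10 spots) in the Arp8 KO line and -0.0035 (SD 0.04, 7 spots) on the array labelled as Arp8 overexpression. Over the 4 probes the ratios were -0.34 to -0.17 in Arp5 KO cells and -0.38 to -0.19 in Arp8 KO cells, but -0.20 to 0.08 on the array labelled as Arp8 overexpression. The probes agreed on a lower signal in the KO cells and differed in sign on the remaining array.

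*HSP90AB1* encodes Hsp90 beta, the constitutive form. Its probe A_23_P145089 gave 61175 units in wild-type cells, 53481 in the Arp5 KO line, 52967 in the Arp8 KO line and 56701 on the array labelled as Arp8 overexpression. The ratios of its 3 probes were -0.17 to -0.09, -0.23 to -0.14 and -0.13 to -0.04 on these arrays. For both Hsp90 genes the gene medians stayed below 0 relative to wild-type under the 6 alternative settings that change every member value, which are other scalings, normexp and the authors' table, though on the array labelled as Arp8 overexpression that of *HSP90AB1*, -0.06, came to -0.0067 with scaling by the median and that of *HSP90AA1*, -0.07, to -0.02.

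*HSPB1*, which encodes the small heat shock protein Hsp27, an ATP-independent holdase, had the largest difference of the 9 genes in either KO cell line, by the median of its probes. Probe A_23_P257704 gave 56058 units in wild-type cells, 37339 in the Arp5 KO line, 32163 in the Arp8 KO line and 42355 on the array labelled as Arp8 overexpression. A_24_P86537 gave 43709.6, 29138, 25223 and 33636 units, and A_32_P76247 gave 67531, 44794, 38625 and 50904 units. The median log2 ratio to wild-type was -0.56 in the Arp5 KO line, -0.82 in the Arp8 KO line and -0.43 on the array labelled as Arp8 overexpression, and the 3 probes lay within 0.03 of each other in each of these. All 3 probes placed wild-type highest, then the array labelled as Arp8 overexpression, Arp5 KO and Arp8 KO, with every gap beyond 2 technical SDs. Arp8 KO was also below the array labelled as Arp8 overexpression by a median log2 ratio of -0.39. The pre-B cell markers *CD22* and *VPREB3* were lower by more than *HSPB1* in both KO cell lines, as given above, and their part in this difference was not tested.

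At 1.5-fold, a threshold that *HSPB1* passed in Arp8 KO cells, 4 of 22 member probes were lower in Arp8 KO than in wild-type cells, the 3 of *HSPB1* and A_23_P111132 of *HSPA1A*, against 6.92% of all probes tested, and 0 were higher, against 5.44%. The *HSPA1A* probe no longer passed with scaling by the median (-0.58) or normexp (-0.44), which left the 3 of *HSPB1*. With these settings 6.17% and 3% of all probes tested were lower. In Arp5 KO cells 1 was lower at this threshold, against 3.97%, and 0 were higher, against 5.09%; at 3-fold 0 were lower, against 0.43%. The *HSPB1* probes lay just short of 1.5-fold in Arp5 KO cells. The count of 1 became 4 with scaling by the median, against 4.68% of all probes tested. It was also 4 with quantile normalization (against 4.74%), no scaling (4.31%) and the authors' table (4.56%). With normexp the count became 3, against 1.71%, so it depends on the processing. These settings were tried at 1.5-fold after seeing the data. Bright probes varied less. Among the 4038 probes with at least 10000 units on the brighter array, 1.76% were more than 1.5-fold lower in Arp8 KO cells, and of the 17 member probes among them 3 were, all of *HSPB1*. The 3 probes read a single mRNA and are not independent, so this is 1 gene of the 9.

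The mitochondrial chaperonin is formed by Hsp60 and its co-chaperonin Hsp10, encoded by *HSPD1* and *HSPE1*. The *HSPD1* probe A_32_P25273 gave 210813 units in wild-type cells, 215417 in the Arp5 KO line, 223659 in the Arp8 KO line and 218311 on the array labelled as Arp8 overexpression, and its log2 ratios were 0.05, 0.07 and 0.03. The other *HSPD1* probe, A_32_P76091, gave 8839, 7642, 8120 and 8253 units, with ratios of -0.19, -0.14 and -0.12, so the 2 probes differed in sign. The *HSPE1* probe gave 139154, 137025, 154601 and 154031 units, with ratios of 0.00, 0.13 and 0.12. Other scalings changed the sign of *HSPE1* in Arp5 KO cells and of the *HSPD1* median in the Arp8 KO line and on the array labelled as Arp8 overexpression, so no direction is given for these 3 ratios. Under the same 6 alternative settings *HSPE1* stayed above wild-type in the Arp8 KO line and on the array labelled as Arp8 overexpression, and the median of the 2 *HSPD1* probes stayed below it in Arp5 KO cells.

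*HSF1* and *HSF2* were near their wild-type level. *HSF4*, the other heat shock factor of the list, had log2 ratios to wild-type of 0.20 in the Arp5 KO line and 0.28 in the Arp8 KO line. On the array labelled as Arp8 overexpression its ratio was -0.12. The *HSF1* probe gave 38798 units in wild-type cells, 38084 in the Arp5 KO line, 41684 in the Arp8 KO line and 41291 on the array labelled as Arp8 overexpression, with log2 ratios of -0.0044, 0.09 and 0.07. *HSF2*, which can form mixed trimers with heat shock factor 1, had ratios of 0.09 and 0.11 by its 2 probes in Arp5 KO cells, 0.19 and 0.09 in the Arp8 KO line and -0.03 and 0.01 on the array labelled as Arp8 overexpression. Of 7 probes for the 5 genes of this list, 1 was more than 2-fold lower in Arp5 KO cells, against 1.23% over the array, and 0 were higher, against 1.25%. In Arp8 KO cells 0 were lower, against 2.08%, or higher, against 1.56%, and 0 were beyond 2-fold on the array labelled as Arp8 overexpression, against 2.83% lower and 1.56% higher. A single probe of 7 is too few to set against these shares. The gene that passed was *HSF2BP*, a binding protein of heat shock factor 2, at 65.3 units in wild-type cells, 28.5 in the Arp5 KO line, 50 in the Arp8 KO line and 49.5 on the array labelled as Arp8 overexpression, a log2 ratio of -1.17 in Arp5 KO cells at a brightness where the technical SD is 0.22.

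The wider chaperone network comprised 80 genes in 7 lists, of which 76 had a probe, with 120 probes in all. Of 105 probes tested in Arp5 KO over wild-type cells, 0 were more than 2-fold higher, against 1.25% over the array, and 1 was lower, against 1.23%. In Arp8 KO cells 1 of 105 was higher, against 1.56%, and 0 were lower, against 2.08%. On the array labelled as Arp8 overexpression 0 of 105 passed in either direction, against 1.56% higher and 2.83% lower. None of these counts is above the share over the array. For Arp8 KO over the array labelled as Arp8 overexpression, 0 of 104 passed, against 1% higher and 0.931% lower over the array. The probe that was higher in Arp8 KO cells reads *BAG3*, a nucleotide exchange factor that links Hsp70 to selective autophagy. It gave 18.9 units in wild-type cells, 24.2 in the Arp5 KO line, 40.2 in the Arp8 KO line and 35.6 on the array labelled as Arp8 overexpression, with a log2 ratio of 1.07 in Arp8 KO cells. The other *BAG3* probe gave 38.0, 35.1, 63.6 and 62.2 units and a ratio of 0.72, and the technical SD at this brightness was 0.22. Both *BAG3* probes were higher in the Arp8 KO line and on the array labelled as Arp8 overexpression than in wild-type cells.

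The list medians were small. Over the 104 network probes that each array showed well above background, the median log2 ratio to wild-type was -0.07 in the Arp5 KO line, 0.04 in the Arp8 KO line and 0.05 on the array labelled as Arp8 overexpression. The co-chaperones of Hsp70 and Hsp90 (46 probes) had medians of -0.13, 0.02 and 0.04, and the subunits of the cytosolic chaperonin CCT (12 probes) had -0.12, 0.02 and -0.01. The Hsp40 proteins of class A and B other than *DNAJB1* (20 probes) had -0.03, 0.14 and 0.18. The other Hsp70 genes (12 probes) had 0.01, -0.11 and 0.05, the Hsp90 genes of other compartments (3 probes) -0.09, -0.20 and 0.17, and the other small heat shock protein genes, of which 4 of 11 probes were well above background on the 4 arrays, -0.04, -0.09 and -0.05. The heat shock factor list (7 probes) had 0.09, 0.15 and -0.02.

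**Figure D4:**
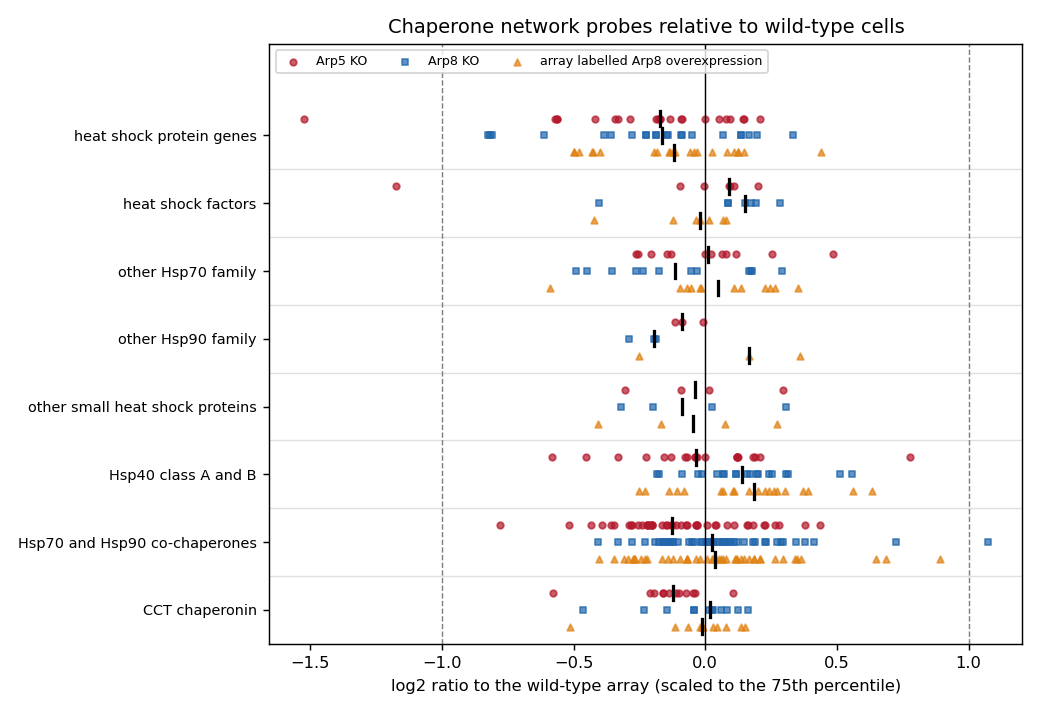
Log2 ratio to the wild-type array of the member probes and of 7 other chaperone lists, for probes well above background on each array, in Arp5 KO cells (circles), Arp8 KO cells (squares) and on the array labelled as Arp8 overexpression (triangles); black bars are list medians and dashed lines mark 2-fold. Outside the members, *HSF2BP* at -1.17 in Arp5 KO cells and *BAG3* at 1.07 in Arp8 KO cells are the probes beyond 2-fold.

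Genes with the most similar profile were searched among 19250 named probes outside the members with a signal well above background on each array, by the Euclidean distance between the 3 log2 ratios to wild-type, which share the wild-type array. For *HSPB1*, the nearest were *ORAI2* at a distance of 0.03, *STXBP2* at 0.07 and *METTL2B* at 0.08, then *ACAD10* and *LRRC20* at 0.09, and 6 probes lay within 0.1. *ORAI2* had ratios of -0.55 in the Arp5 KO line, -0.83 in the Arp8 KO line and -0.40 on the array labelled as Arp8 overexpression. For the median profile of the member genes, at -0.09, -0.09 and -0.06, the nearest were *YTHDC1* and *NSD1* at 0.01, *CSE1L* at 0.01, *AKR1B1* at 0.02 and *YDJC* at 0.02. This profile lies near 0, where 406 probes were within a distance of 0.1, so with a technical SD of 0.03 these 5 genes are not set apart from many others.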

How the data were processed

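Total RNA of 4 Nalm-6 cultures, 1 per genotype, was measured on Agilent single-color arrays. The authors deposited the output of Agilent Feature Extraction, whose version is 10.5.1.1 per the file headers, and the processed signal used here is a linear intensity from which the software had removed background and spatial trend. A table of intensity values was deposited too, with column medians of 127.4, 127.9, 122.5 and 119.1 for wild-type, Arp5 KO, Arp8 KO and the array labelled as Arp8 overexpression. For spots over 1000 units it equals the processed signal times a factor of 0.847, 0.838, 0.825 and 0.807 for these arrays, with no centring, and how the factors were set is not given in the sources used here.

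Control spots were left out. The 75th percentile of each array, taken over all other spots with outlier spots included, was subtracted from the log2 processed signal. Outlier spots were left out of the probe values, and the remaining spots of a probe were averaged. A probe counted as well above background when most of its spots did. Ratios required the brighter array to be well above background, and a dimmer signal was replaced by the lowest one that passed on its array if it lay under it. With 1 array per genotype no test was run, and the number of arrays limits the precision. A gene's value is the median of its probes.

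Probes were named through their accession and the RefSeq genes of GRCh38.p14, with a match for 26222 of 41000 probes (64.0%). The scanner files name another build, so that table served for names only. The members and lists were chosen with earlier results of these data known. All members and both *HSF1* and *HSF2* are named, and from every other list up to 4 genes with the largest log2 ratio among those beyond 2-fold in a KO cell line. *HSF4* was added outside this rule as the remaining heat shock factor of its list. The most similar genes are the 5 nearest. Bright probes at 1.5-fold, other scalings, normexp and the authors' table at 1.5-fold, and the median without *HSPA1A*, were alternatives chosen after seeing the data. The other alternatives were other scalings, normexp with an offset of 50 on the median signal, since the files hold no mean signal, the authors' table, other filters, 1 value per gene and other folds. The ratio calls were tested on simulated data. Software was R 4.3.3 with limma 3.58.1 and Python 3.11.15 with numpy 2.4.6, pandas 2.3.3 and matplotlib 3.10.9.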

Additional observations from a re-analysis of the deposited data

Results flagged for a closer look

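*HSPH1* stood on opposite sides of wild-type cells in the KO cell lines, with a log2 ratio of -0.42 in Arp5 KO cells and 0.33 in Arp8 KO cells. It was the only gene of the 9 flagged because its median moved in opposite directions in these comparisons by more than 3 technical SDs each. *HSPA1A* came close, with medians of 0.14 in Arp5 KO cells and -0.09 in Arp8 KO cells. With the authors' table these were 0.10 and -0.11, so whether *HSPA1A* passes depends on the processing and on the SD used. Of the myeloid markers, *LYZ* had log2 ratios of -0.24 and 1.35 in these lines, *ITGAM* -0.41 and 0.94, *CSF1R* 0.01 and 0.53 and *CD14* 0.08 and 0.02, and their part in the *HSPH1* difference was not tested. The comparisons share the wild-type array, each rests on 1 array per cell line, and the difference between them was not tested.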

How the results depend on the processing

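No paired analysis was possible because there was a single array for every genotype. Since all member probes are well above background on the 4 arrays, the 3 settings of the filter on dim signals could not change a member value, and keeping outlier spots could change only *HSP90AA1*. Under the other 6 settings of the signal, all 24 counts beyond 2-fold stayed the same, and 13 of 24 medians over the member probes moved by less than the technical SD of bright probes. The median log2 ratio of the member probes in Arp5 KO over wild-type cells, -0.17, became -0.22 with scaling by the median, -0.22 with quantile normalization, -0.21 with the authors' table and -0.094 with 1 value per gene. In Arp8 KO over wild-type cells, -0.17 became -0.13 with scaling by the median and -0.089 with 1 value per gene. On the array labelled as Arp8 overexpression, -0.12 over wild-type became -0.068 with scaling by the median, -0.17 with quantile normalization, -0.16 with the percentile over probes well above background, -0.16 with the authors' table, -0.057 with 1 value per gene and -0.057 without *HSPA1A*, a choice made after seeing the data. For Arp8 KO over the array labelled as Arp8 overexpression, -0.10 became -0.056 with quantile normalization, -0.062 with the percentile over probes well above background, -0.058 with normexp and 0.011 with 1 value per gene, which changes its sign. The count beyond 2-fold in Arp5 KO cells, 1, became 0 with 1 value per gene, since the other *HSPA1A* probes set its median, and 0 at 3-fold. In Arp8 KO cells the count of 0 became 4 at 1.5-fold, all lower, against 6.92% of all probes tested. The 6 settings at 1.5-fold were a combination chosen after seeing the data. In Arp5 KO cells the count of lower probes was 1 to 4, against 1.71% to 4.74% of all probes tested, and the *HSPB1* median passed in 5 of the 6 settings. In Arp8 KO cells the count was 3 to 4, against 3% to 7.32%. The largest shift of the median of all probes under another scaling was 0.05. Among the medians of single genes, 204 of 216 values under these 6 settings kept their sign. Those of *HSPB1* ranged from -0.61 to -0.58 in Arp5 KO and from -0.84 to -0.78 in Arp8 KO cells. Probe A_23_P111132 stayed beyond 2-fold in Arp5 KO cells in each of these 6 settings, at -1.19 with normexp.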
